A study of Caenorhabditis elegans with 2 samples.

Results

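The genes described here encode the DREAM complex of Caenorhabditis elegans, with the related genes efl-2 and lin-61. The set was given as a list of 10 gene names, and all 10 matched a protein-coding gene of Ensembl release 115 on assembly WBcel235, out of 19973 protein-coding genes on the nuclear chromosomes. The genes were chosen by name with the peak signals and calls at their promoters in these lists already known, so those peaks are described and not tested. Chromatin immunoprecipitation followed by sequencing (ChIP-seq) was used to find where the homeobox protein CEH-91 sat on the genome. The sample descriptions say that the antibody was against GFP, while the antibody field of the same labels reads ceh-91, and the files do not settle which is meant. The material was whole young adults of strain RW12305, aged 62.5 hours, from bleached cultures synchronised as starved L1 larvae. In these worms a CRISPR insertion on chromosome III, allele st12305, fuses TY1, EGFP and 3xFLAG to ceh-91. The 2 samples are biological replicates 1 and 2 of 1 group, and no label says how the worms of each were grown. There is no untagged or otherwise treated group among them, and signal from whole animals averages over all of their cells.

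DREAM is a chromatin-bound repressor. In it a pocket protein of the retinoblastoma family and an E2F-DP pair are joined to a group of proteins called MuvB. In worms it holds down cell cycle genes and, in somatic tissues, germline genes, and its genes belong to the synthetic multivulva (synMuv) class B that opposes vulval induction. E2F-DP binds sites whose inner letters were searched here, on both strands, as the word TTCCCGC, the word TTGGCGC, the word TTCGCGC or the word TTGCCGC. MuvB binds the cell cycle genes homology region (CHR), searched here on both strands as the word TTTGAA or the word TTCGAA.

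The authors deposited 4 long ranked lists of peaks, each with a short thresholded one: 1 per replicate and 2 that draw on both. Peaks of the short lists are called listed peaks. All had a global irreproducible discovery rate (IDR) of at most 0.01. This rate is low where a peak ranks both high and alike in the inputs of a list. Weak peaks can have a high rate even with nearly equal inputs. The smallest value was 1e-05. The conservative list, which compared the replicates, held 1612 listed peaks of 53026 ranked. Of the ranked ones 51326 had a rate above 0.01, so some peaks at or below 0.01 were not listed, as in the other lists. The other comparison, called pooled here, held 1716 of 50055, replicate 1 held 1180 of 35497, and replicate 2 held 974 of 37659. Read depth is unknown, and signals are those the authors gave each peak, on a scale not given in the sources used here. A gene was called bound when a listed summit fell in its promoter window, which reached from 1000 bp before a transcript start to 200 bp after it.

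CEH-91 signal was listed at the promoters of 6 of the 10 genes in the conservative list. These were lin-35, lin-9, lin-52, lin-53, lin-54 and lin-61. Of all protein-coding genes, 7.37% were bound by the same rule. The same 6 were bound in the pooled list (background 7.65%). In the replicates' own lists 5 were bound, all but lin-52 (background 6.06% in replicate 1, 5.33% in replicate 2 and 4.58% in both). The median signal of the 6 listed peaks was 378, and that of all 1114 listed peaks at protein-coding promoters was 137. The peaks of lin-9, lin-53 and lin-54 were among the 161 strongest of the conservative list, the top 10%, which reached 1.01% of protein-coding genes. The top 10% held 3 of the genes in the pooled list (background 1.07%), 3 in replicate 1 (0.741%) and 2 in replicate 2 (0.606%). A ranked summit of any rate was found at 8 of the 10 genes in the conservative list (background 52.1%), 9 in the pooled list (50%), 9 in replicate 1 (45.1%) and 8 in replicate 2 (47.7%). Among the 4 unbound genes, efl-1 and lin-37 had a ranked peak in every list, and dpl-1 and efl-2 had ranked peaks in a single list each. The choice of the genes drew on these calls, so nothing is read from the difference to the background.

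The count of bound genes ranged from 4 to 7 with the rule, and the 4 came from giving each summit to its nearest start only (background 4.64%). With a window of 500 bp before to 100 bp after the start 6 genes were bound (background 5.86%), and with one of 2000 to 500 bp also 6 (9.28%). It was 6 with starts of protein-coding transcripts only (7.36%) and with peak intervals in place of summits (7.74%). At a rate of at most 0.001 it was 5, without lin-52 (5.46%), and among ranked peaks at a rate of at most 0.05 it was 7, with efl-1 (9.22%).

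**Figure D1:**
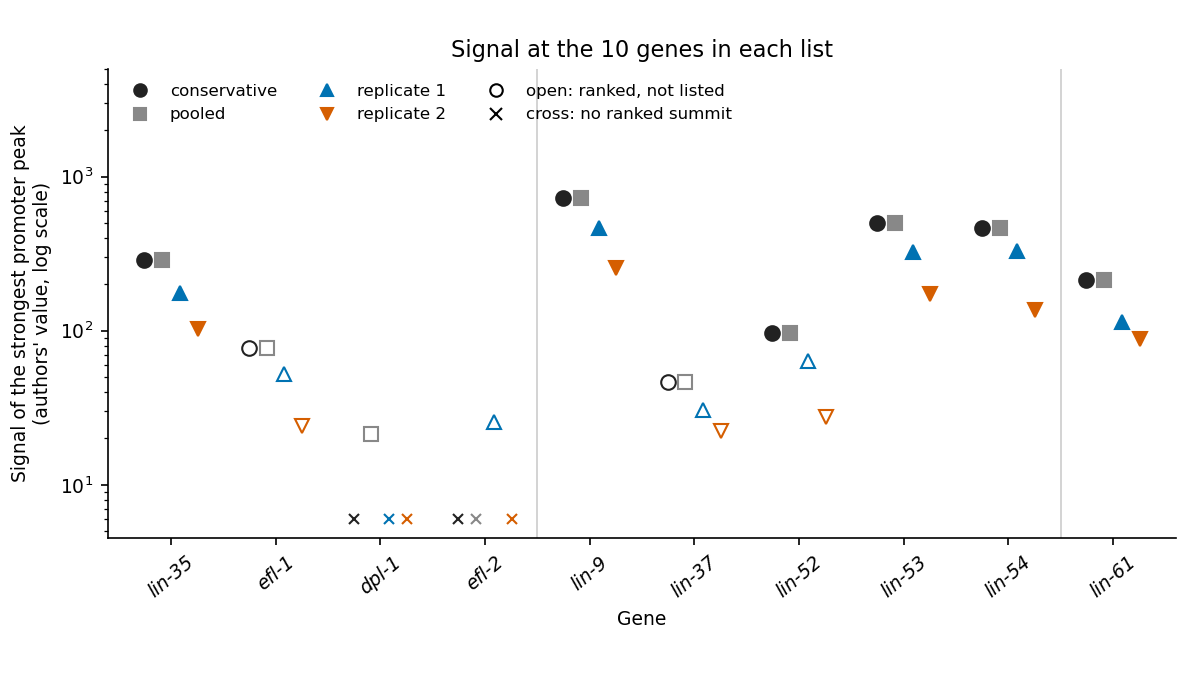
Signal of the strongest peak in the promoter window of each of the 10 genes, in the authors' units on a log axis, in the 4 lists, where filled points are listed, open points are ranked only and crosses mark no ranked summit. The highest points are those of lin-9, at 723 in the conservative list, and dpl-1 and efl-2 are mostly crosses.

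The pocket protein gene was bound, and the DP gene and the E2F genes efl-1 and efl-2 were not. lin-35 (WBGene00003020, chrI:5807709-5815637, plus strand) encodes the only pocket protein of the worm. Its peak at chrI:5807477-5807630 had a signal of 290 in the conservative and pooled lists, 175 in replicate 1 and 102 in replicate 2. It ranked 190th, 190th, 205th and 216th among the listed peaks of those lists, each time with a global rate of 1e-05. The summit lay 166 bp upstream of the start, and 35 bp farther upstream in replicate 2.

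dpl-1 (WBGene00001061, chrII:9169910-9172565, plus strand) encodes DP, which pairs with E2F proteins to bind DNA. It had no ranked summit in its window in the conservative list or in either replicate. The pooled list had 1, with a signal of 21.3 and a rate of 0.894, 146 bp downstream of the start. The nearest listed peak was 43328 bp away in the conservative list, at znfx-1, which encodes a helicase of germ granules, and between 43328 and 43349 bp away in the others. efl-2 (WBGene00001162, chrII:13406140-13411895, plus strand) encodes a second E2F protein, which is not counted among the core DREAM subunits. Only replicate 1 had ranked summits in its window, with signals of 25.6 and 24.1 at rates of 0.781 and 0.728. These values lay near the median of that replicate's ranked list, at percentiles of 54.8 and 48.1. The nearest listed peak was 65976 bp away in the conservative list and 36720 bp away in replicate 2.

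efl-1 (WBGene00001161, chrV:16958590-16965675, minus strand) encodes the E2F subunit of DREAM. Its strongest peak, at chrV:16965707-16966016, was ranked but not listed in any of the 4 lists. The signal was 77.3 in the conservative and pooled lists, 52.0 in replicate 1 and 24.0 in replicate 2. The global rates were 0.0219, 0.0134, 0.0439 and 0.722. All of these missed the threshold of 0.01, that of replicate 2 by far the most. Of the 10 genes, efl-1 was thus the nearest outside the threshold in the conservative list, and lin-52, at a rate of 0.00556, was the nearest inside it. The summit was 187 bp upstream of the start in the conservative list, with 109 bp and 129 bp in the replicates. In the conservative and pooled lists it also fell in the window of fbxa-90 on the opposite strand, 952 bp upstream of that gene. The nearest listed peak of the conservative list was 170508 bp away, at pus-1, which encodes a pseudouridine synthase. In the pooled list the nearest was 56629 bp away, and in replicates 1 and 2 it was 172155 and 219272 bp away. The sequence to 50 bp on each side of the summit, chrV:16965812-16965912, is shown in the direction of the gene (minus strand, RefSeq sequence of WBcel235) because it holds an E2F word, in capitals, in the promoter of an E2F gene.
efl-1: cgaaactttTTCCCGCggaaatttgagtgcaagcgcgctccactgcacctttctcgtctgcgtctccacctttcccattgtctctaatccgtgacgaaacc
The word began 41 bp before the conservative summit in the direction of the gene, and the window held no CHR word. It was not within 50 bp of either replicate's summit, both of which lay nearer the start. E2F words were in 5.27% of the promoter windows of the conservative comparison whose rate was above 0.01.

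Of the 5 MuvB genes 4 were bound in the conservative list (background 7.37%), and lin-9 had the strongest peak of the 10 genes. lin-9 (WBGene00002998, chrIII:8900237-8904131, minus strand) encodes a core protein of MuvB. Its peak at chrIII:8904085-8904357 had a signal of 723 in the conservative and pooled lists, 462 in replicate 1 and 256 in replicate 2. It ranked 21st, 21st, 24th and 22nd among listed peaks, each time with a rate of 1e-05. It was thus near the top of every list. The summit lay 94, 94, 105 and 97 bp upstream of the start. A weaker peak in the same window lay 833 bp upstream, at chrIII:8904809-8905118, with a signal of 82.1 and a rate of 0.0563 in the conservative list. It was listed nowhere, and its window also holds the start of unc-32, a subunit gene of the vacuolar ATPase.

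lin-54 (WBGene00003037, chrIV:13241044-13243401, plus strand) encodes the MuvB subunit that binds the CHR. Its peak at chrIV:13240564-13240805 had a signal of 466 in the conservative and pooled lists, 330 in replicate 1 and 137 in replicate 2. It ranked 86th, 86th, 64th and 130th among listed peaks, at a rate of 1e-05 in all. The summit lay 367 bp upstream, or 360 bp in replicate 2. The signal of replicate 1 was 2.42 times that of replicate 2, the largest such ratio among the paired peaks at these genes.

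lin-53 (WBGene00003036, chrI:9618196-9619760, minus strand) encodes a histone-binding protein of the RbAp46/48 type that also serves in other chromatin complexes. Its peak at chrI:9619875-9620098 had a signal of 500.2 in the conservative and pooled lists, 325 in replicate 1 and 173 in replicate 2. It ranked 71st, 71st, 67th and 75th among listed peaks, and every rate was 1e-05. The summit moved by no more than 1 bp, lying 220 or 221 bp upstream of the start. A second, weak peak 915 bp upstream had a signal of 12.1 and a rate of 0.898.

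lin-52 (WBGene00003035, chrIII:9824083-9824750, minus strand) encodes a small protein that links the pocket protein to MuvB. Its peak at chrIII:9824599-9824908 was the weakest listed peak at these genes. The signal was 96.6 in the conservative and pooled lists, 63.8 in replicate 1 and 27.7 in replicate 2. The rates were 0.00556, 0.00484, 0.0375 and 0.557, so the peak was listed in the 2 comparisons over both replicates and in neither replicate's own list. The summit stayed within 15 bp upstream of the start in all 4. In replicate 2 a second ranked peak 982 bp upstream had a lower signal, 23.5, but a lower rate, 0.0584. lin-37 (WBGene00003022, chrIII:7070890-7072552, minus strand), the MuvB gene without a listed peak, had signals of 46.6 in the conservative and pooled lists, 30.5 in replicate 1 and 22.5 in replicate 2. The rates ran from 0.183 to 0.767, far from the threshold. The conservative summit coincided with the annotated start, and the replicates' summits lay 117 and 32 bp downstream of it. The nearest listed peak of the conservative list was 3722 bp away, at ubc-18 and R01H2.8. Both lin-52 and lin-37 lie close behind a gene on the same strand. ZK632.9 ends 126 bp upstream of lin-52, and ZK418.5 ends 60 bp upstream of lin-37. Whether the annotated starts of lin-52 and lin-37 are where transcription begins was not tested.

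The sequence at the summits of lin-9, lin-54 and lin-52 shows the range among bound MuvB promoters, from a window with E2F and CHR words side by side to one with neither. Each reaches 50 bp to both sides of the conservative summit, in the direction of the gene, from the RefSeq sequence of WBcel235, with E2F and CHR words in capitals. They cover chrIII:8904175-8904275 (minus strand), chrIV:13240627-13240727 (plus strand) and chrIII:9824704-9824804 (minus strand).
lin-9: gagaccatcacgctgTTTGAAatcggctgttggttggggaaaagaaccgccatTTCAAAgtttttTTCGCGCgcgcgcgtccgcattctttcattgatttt
lin-54: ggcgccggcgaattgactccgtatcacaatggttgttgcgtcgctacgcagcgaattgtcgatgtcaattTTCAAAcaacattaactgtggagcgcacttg
lin-52: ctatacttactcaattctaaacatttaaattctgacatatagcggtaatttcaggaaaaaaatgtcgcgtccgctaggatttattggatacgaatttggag
In lin-9, a CHR word on the opposite strand began 3 bp after the summit, an E2F word followed 6 bases beyond it, and another CHR word lay 35 bp before the summit. In lin-54, a CHR word on the opposite strand began 20 bp after the summit. The lin-52 window held neither word, and its GC content, 33.7%, was the lowest of the bound genes. Matching letters are a description and not a measured site.

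lin-61 was bound as well. It is a synMuv B gene (WBGene00003041, chrI:7248827-7251282, minus strand) whose protein has MBT repeats and binds methylated histone H3, and it is not a DREAM subunit. Its peak at chrI:7251596-7251905 had a signal of 213 in the conservative and pooled lists, 114 in replicate 1 and 87.8 in replicate 2. The ranks among listed peaks were 329, 329, 433 and 303, and the rates ran from 1e-05 to 4.67e-05. The summit lay 469 bp upstream of the start, farther than at any other bound gene of the set, and 462 and 481 bp upstream in the replicates.

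**Figure D2:**
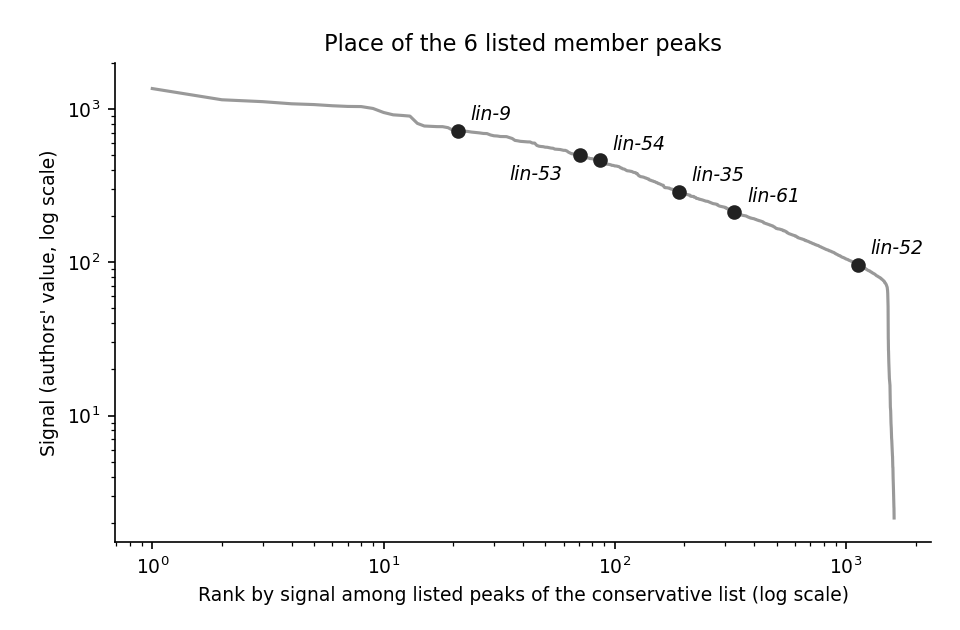
Signal of all 1612 listed peaks of the conservative list against their rank, both on log axes, as a line, with the 6 listed peaks at the genes described here as points. They run from lin-9, 21st at 723, to lin-52, 1120th at 96.6.

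Of the 6 bound genes 4 shared their peak with a gene on the opposite strand, and lin-9 and lin-52 did not. Of the 1114 listed peaks at protein-coding promoters, 426 (38.2%) had starts on both strands in their window. That is a share of peaks, while 4 of 6 is a share of genes. Each such peak counts for genes on both strands, so the share among all bound genes can be higher. It was not counted, and nothing is read from the difference between 4 of 6 and 38.2%. The lin-53 summit lay between lin-53 and nra-2, which encodes a nicalin-like protein of the endoplasmic reticulum, 247 bp upstream of nra-2 and 220 bp upstream of lin-53. The lin-35 summit was 252 bp upstream of vps-51, which encodes a vesicle tethering subunit, and 166 bp upstream of lin-35. In both cases the DREAM gene was the nearer one. The lin-54 summit was 26 bp upstream of rpl-12, a ribosomal protein gene of the large subunit, against 367 bp for lin-54. The lin-61 summit was 190 bp upstream of bub-1, which encodes a spindle checkpoint kinase, against 469 bp for lin-61. With each summit given to its nearest start only, lin-54 and lin-61 were no longer counted and 4 genes were bound. To which gene of a shared promoter a peak belongs cannot be told apart from these lists.

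**Figure D3:**
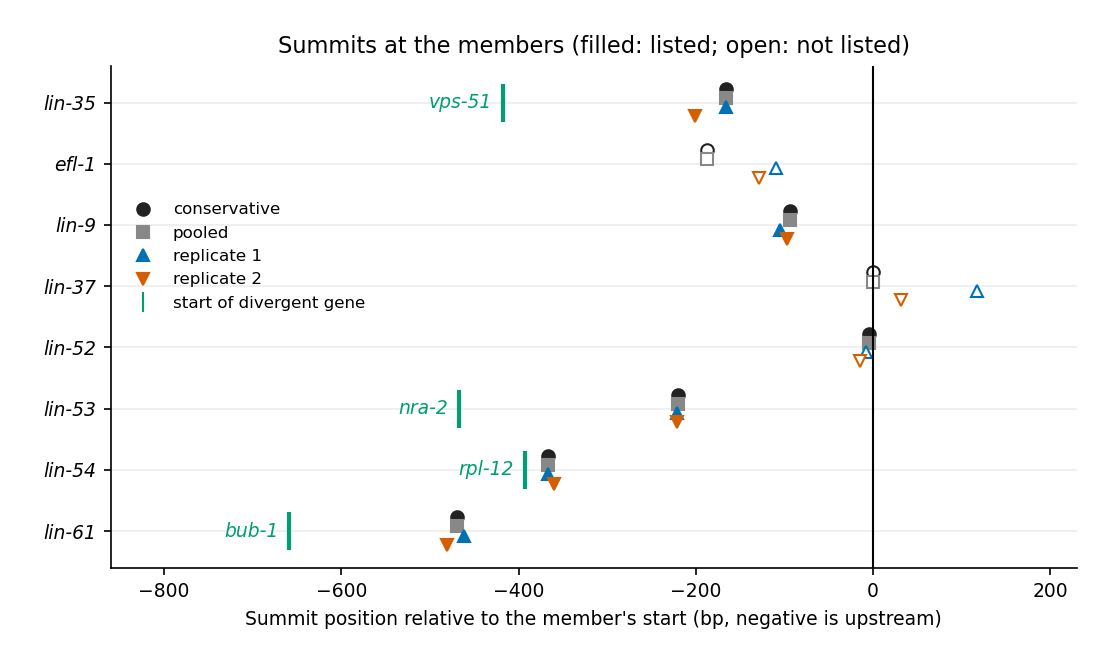
Position of the strongest summit relative to the start of each of 8 genes, in bp, with negative values upstream, in the 4 lists. Filled points are listed, open points are not, and green bars mark the start of a divergent neighbour that shares a listed peak. The lin-54 summits sit next to the bar of rpl-12, and those of lin-53 fall on top of each other.

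The replicates could be compared at 8 genes whose strongest ranked peaks overlapped by at least 1 bp. Signal was higher in replicate 1 at all 8, where the log2 ratio of replicate 1 to replicate 2 had a median of 0.88 and a range from 0.38 at lin-61 to 1.27 at lin-54. At the 5 genes listed in both replicates the median was 0.85. Over the 795 listed peaks of replicate 1 that overlapped a listed peak of replicate 2 it was 0.74, and the SD was 0.42, against 0.33 over the 8 genes. The SD over listed peaks depended on the pairing. It was 0.35 under a stricter overlap rule and 0.36 with summits within 100 bp, while that over the 8 genes stayed at 0.33. Whether signals of different libraries share a scale is not given in the files, so the offset common to most peaks is not read as a difference in binding.

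The summits of the paired peaks were 0 bp apart at lin-53, 7 bp at lin-54 and lin-52, 8 bp at lin-9, 19 bp at lin-61, 20 bp at efl-1, 35 bp at lin-35 and 85 bp at lin-37. Each replicate's own list was read as a comparison of 2 parts of that library, so the difference between its inputs is technical and is no measure of the spread between samples. At lin-9 the 2 inputs of replicate 1 differed by 0.26 on the log2 scale and those of replicate 2 by 0.16. At lin-61 the inputs had signals of 47.4 and 68.6 in replicate 1 and 32.7 and 54.3 in replicate 2.

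**Figure D4:**
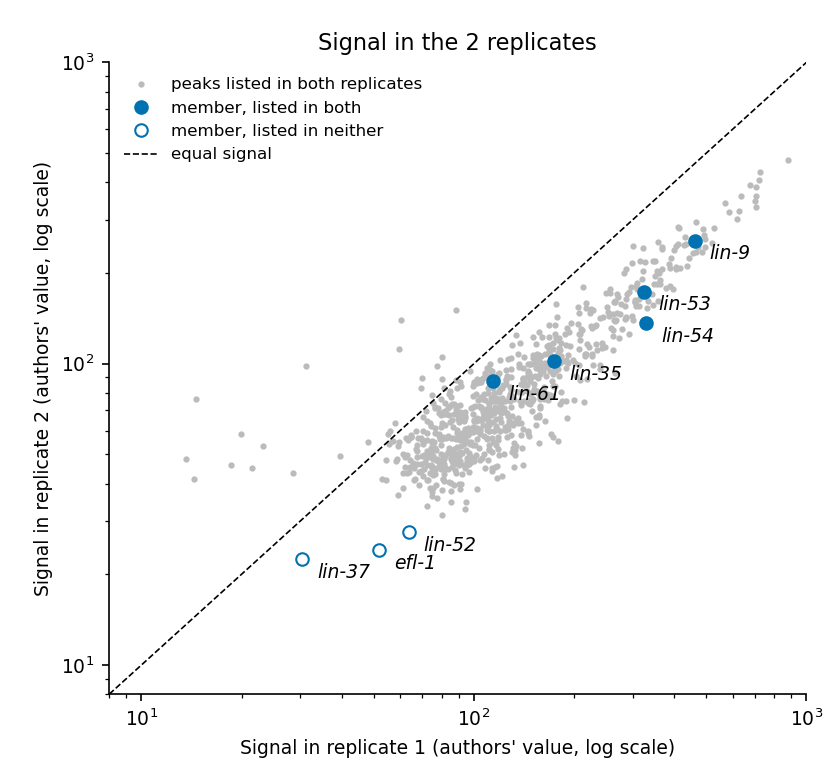
Signal in replicate 2 against replicate 1, on log axes, for 795 pairs of listed peaks (grey) and for the strongest peaks of 8 of the genes (blue; filled where listed in both replicates, open where in neither). All 8 lie below the dashed line of equal signal, and lin-37, efl-1 and lin-52 lie under the grey cloud.

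CHR words were found within 50 bp of the summit (windows of that reach on both sides) in 4 of the 6 bound genes, lin-9, lin-53, lin-54 and lin-61. Such words, on either strand, were in 35.1% of the 1114 listed promoter windows and in 26.1% of the 14229 promoter windows of the conservative comparison whose rate was above 0.01. The E2F words were in 1 of the 6, lin-9, against 24.8% of listed and 5.27% of the other windows. With windows reaching 100 bp to each side, E2F words were in 3 of the 6, against 31.2% and 9.28%, and CHR words still in 4, against 59.7% and 46.1%. Both kinds of word within 10 bases of each other, as at lin-9, were in 7.72% of listed and 0.794% of the other windows. The gap of 10 bases was chosen after the lin-9 window had been seen. The homeodomain core TAAT was in 2 of the 6, lin-52 and lin-54, against 46.4% of listed and 54.8% of the other windows. It was in 1 of the 6 with a reach of 30 bp, against 28.8% and 38.3%, and in 5 with a reach of 100 bp, against 77.1% and 79.0%.

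Six-letter words not chosen beforehand gave a further description. Among all words of 6 bases, taken after the data were seen and ordered by the difference in percentage points, the second largest excess in listed over other promoter windows was that of CGCGAA (19.3% against 3.42%), which is part of the E2F word TTCGCGC read on the opposite strand. It was in the windows of lin-9, lin-53 and lin-61. The largest excess, that of GAGACC (21.6% against 4.32%), was in those of lin-9 and lin-53. Listed windows were also richer in GC, with a median of 45.5% against 39.6%, and the part of base composition in these shares was not tested. The bound genes' windows ranged from 33.7% GC at lin-52 to 54.5% at lin-53.

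Genes that work with or beside DREAM were described in 6 further lists, also chosen with earlier results of these data known. Of their 51 genes, 22 were bound in the conservative list, where the share of all protein-coding genes was 7.37%, and differences between the lists were not tested. The limit on shared promoters holds here too. The listed peaks of rnr-2, mcm-3, mcm-6, mcm-7, cye-1, mrg-1, chaf-2 and hat-1 also fell in the window of another protein-coding gene. Genes of DNA synthesis in S phase, many of them known targets of E2F, were bound in 9 of 12, and all 9 were also bound in the list of each replicate (background 4.58% in both). The strongest were mcm-2, a subunit of the replicative helicase (signal 652), pcn-1, which encodes PCNA (480), and mcm-4 (327). The ribonucleotide reductase gene rnr-1 had 307. The unbound 3 were cdc-6, cdt-1 and orc-2, which act in loading the helicase at origins. The median signal was 285 over these 9 and 378 over the 6 bound members.

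Other synMuv B genes were bound in 5 of 13 (background 7.37%), also 5 in replicate 1 (6.06%) and 3 in replicate 2 (5.33%). The 5 were not the same: lin-36, at a rate of 0.0630 in the conservative list, was listed in replicate 1, and mep-1 was not. The strongest were smo-1, which encodes SUMO (312), ubc-9, the SUMO-conjugating enzyme gene (229), and tam-1 (134). let-418 and mep-1, which encode subunits of a nucleosome remodelling complex, had 86.5 and 91.1. Of the heterochromatin genes, hpl-1 and hpl-2 had no ranked peak in their window in the conservative list, and met-2 had one with a rate of 0.804. Of the 4 synMuv A genes, lin-8 was bound (176). Of the 5 genes whose loss suppresses synMuv phenotypes, isw-1 (361) and mrg-1 (193) were bound.

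Regulators of entry into S phase were bound in 3 of 11 in the conservative list (background 7.37%), 3 in replicate 1 (6.06%) and 0 in replicate 2 (5.33%). These were the cyclin E gene cye-1 (118), lin-23 (113), which encodes an F-box protein, and the Cip/Kip inhibitor gene cki-2 (104). Neither cyd-1 nor cdk-4, the cyclin D and Cdk4/6 genes that act upstream of LIN-35, was bound, and their rates were 0.440 and 0.779. The E2F-like gene efl-3 had no ranked peak in the conservative list and an unlisted one of 45.9 in replicate 1. Among partners of RbAp46/48-type proteins 2 of 6 were bound, the acetyltransferase gene hat-1 (395) and the chromatin assembly factor gene chaf-2 (215). rba-1, which encodes the close relative of LIN-53 and lies next to lin-53, was not listed (35.8, rate 0.768).

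**Figure D5:**
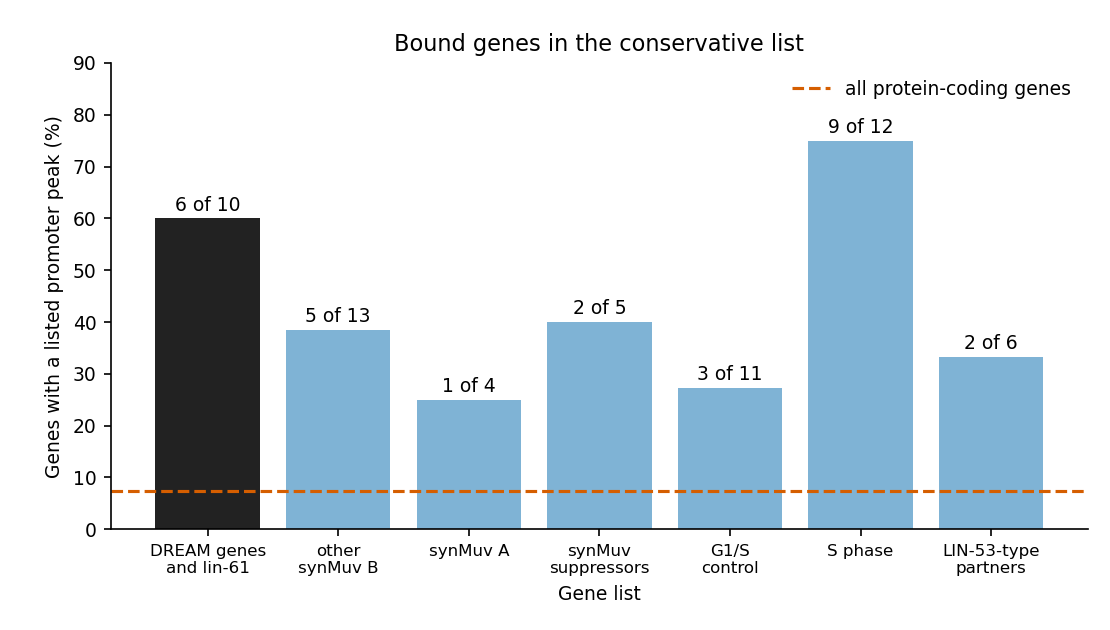
Share of the genes in each list with a listed promoter peak in the conservative list, in percent, with counts above the bars and a dashed line for all protein-coding genes, at 7.37%. The S phase list and the genes described here stand highest, and both were chosen with earlier results known.

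Genes whose peaks placed most like those of the bound members were found by the mean absolute difference in percentile rank over the 4 ranked lists, among 5721 protein-coding genes with a ranked promoter peak in all 4. Nearest to lin-9 were rga-3 and K09H11.9, with the same signal of 699.5 in the conservative list, and rpl-20, with 757, at distances of 0.00887, 0.00887 and 0.0089 percentile points. Nearest to lin-53 were egg-1, needed in the egg for fertilisation, nstp-10 and Y55F3AR.2. Nearest to lin-54 were hrde-1, which encodes a nuclear Argonaute of the germline, C16C10.13 and E02C12.12. Nearest to lin-35 were rps-26, tmem-107 and pdtf-1, and nearest to lin-61 were set-2, C09E7.7 and rpn-3. lin-52, with weaker and less even peaks, had Y43E12A.3, fog-1 and fbxl-1 as neighbours at 0.114 to 0.173 percentile points. The 4 lists come from the same 2 libraries, so these are likenesses of place in the lists only.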

How the data were processed

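ChIP-seq peaks were analysed for 2 replicates of 1 group. The authors deposited 8 peak lists, per the labels on assembly ce11 (WBcel235): 4 ranked ones and a thresholded one for each. Per the labels, chromatin was sheared by sonication with a size range of 200 to 800. Aligner, peak caller and versions were not given in the sources used here. The deposited notes name, beside the replicates' own alignments, the same 1 further input for both replicates, read here as a shared control alignment. The deposited signal per peak is the authors' value on an unstated scale. The deposited −log10 of the global IDR was converted to a rate. The deposited series-wide ranked lists were told apart by their inputs: 59.4% of the inputs in one had the coordinates of replicate peaks, and it was read as the conservative one.

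Summits were column 2 plus column 10 of the lists, written 1-based, and were assigned to Ensembl release 115 transcript starts with Python 3.11.15 and pandas 2.3.3. The assignment was checked on simulated peaks. Sequence came from the RefSeq copy of the same assembly. The members and all gene lists were chosen with earlier results of these data known, so no test was made and counts of bound genes are given beside the share of all protein-coding genes. Named genes are the members, genes sharing a listed member peak, the 3 strongest of each related list (all where 3 or fewer were bound), and the 3 nearest in rank to each bound member; others were named after their values were seen. Lists hold no read counts, so depth is unknown and no counting intervals are given.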

Additional observations from a re-analysis of the deposited data

How the results depend on the processing

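The count of bound members was 6 of 10 in the conservative list. It stayed 6 in the pooled list and ranged from 4 (nearest starts only) to 7 (ranked peaks at a rate of at most 0.05) under the other settings. Leaving out either replicate, that is, taking the other replicate's own list, gave 5 both times. Members bound in both replicates stayed at 5 in all 5 alternatives run. The share of all protein-coding genes was 4.58% by the main rule and was not counted for these alternatives, so nothing is read from this. Related genes bound ranged from 17 to 22 when a replicate was left out (background 5.33% and 6.06%) and from 16 with nearest starts only (4.64%) to 24 with the wide window (9.28%) or a rate of at most 0.05 (9.22%), against 22 (7.37%). The replicate offset was 0.88 under each overlap rule, but the same 8 pairs of peaks met every rule, so it could not change. Windows with an E2F or CHR word numbered 4 of 6 with a reach of 50 bp to each side of the summit, 3 with 30 bp and 4 with 100 bp. Of all listed promoter windows, 35.1%, 20.6% and 59.7% had a CHR word at these reaches. An E2F word was in 24.8%, 17.8% and 31.2%. The share with either word was not counted, so nothing is read from the counts of members. The signal at each bound member was the same in the pooled list and under both other windows. All 6 summits lay inside the narrower window too, so the same peaks were taken and this is no check of the values. No paired analysis was possible because the samples form 1 group. The conservative and pooled lists draw on the same 2 libraries and give the same signals at these peaks, so they are not independent checks. The lack of read counts, of an untagged control group and of more than 2 libraries limits every value.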

Other observations

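Words for E2F and CHR were also counted in the summit windows of the bound related genes, where 24.8% of all 1114 listed promoter windows had an E2F word, 35.1% a CHR word and 11.6% both. Of the 9 bound S phase genes, 8 had an E2F word within 50 bp of the summit, 8 had a CHR word and 7 had both. rnr-1 lacked the CHR word and mcm-6 the E2F word. Of the 5 other bound synMuv B genes, 4 had an E2F word, let-418, mep-1, smo-1 and ubc-9, and 3 of these also had a CHR word. Of the 3 bound regulators of S phase entry, cye-1 and cki-2 had both. Of the 6 bound members 1 had an E2F word, 4 had a CHR word and 1 had both, and with a reach of 100 bp 3 had an E2F word, a reach at which the related genes were not counted. These are counts of letters in a few windows, the lists were chosen with results known, and differences between them were not tested.

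The homeodomain core TAAT, the usual centre of homeodomain sites, was in a smaller share of listed than of other promoter windows with a reach of 30 bp to each side of the summit (28.8% against 38.3%) and of 50 bp, and the shares were 77.1% and 79.0% with 100 bp. With a reach of 50 bp it was in 46.4% of listed windows, in 2 of the 6 bound members, 1 of the 9 bound S phase genes, 2 of the 5 other synMuv B genes, 1 of the 3 regulators of S phase entry, 2 of the 2 synMuv suppressors, the 1 synMuv A gene and 0 of the 2 partners of RbAp46/48-type proteins. Its part beside the higher GC content of listed windows was not tested.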
